A study of Homo sapiens with 30 samples.

Results

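The short arm of chromosome 9 (9p) was followed in 4C-seq libraries whose viewpoints lie near the tip of the long arm, around NOTCH1. Its members were all restriction fragment ends at positions 1 to 47000000 of chromosome 9 (hg19), taken by position alone. These were 132690 of the 382657 ends listed for the promoter viewpoint, 147581 of 429740 for the S2 viewpoint and 147264 of 428705 for the S4 viewpoint. They fell into 47 bins of 1 Mb, of which 39 held at least 100 ends, while the 8 bins nearest the centromere held 100, 95 and 101 ends in all.

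The series holds 30 libraries of K562, a human cell line from a chronic myeloid leukaemia. 4C-seq joins cross-linked, DpnII-cut chromatin by ligation and counts the fragments joined to 1 chosen fragment, the viewpoint. The viewpoints were the NOTCH1 promoter and 2 sites, S2 and S4, of CTCF, a zinc finger protein that binds DNA and anchors many chromatin loops. For each viewpoint there were 2 libraries each of K562 cells mutated at S2 (S2 mutant), at S4 (S4 mutant), at S5 (S5 mutant) or at both S4 and S5 (S4-S5 mutant), and of unedited K562 cells (WT). All groups thus share the K562 genome, and none received a treatment. The sources used here do not say whether a mutant was 1 clone or a pool, or whether the 2 libraries of a group came from separate cultures. Every p-value therefore measures only how these libraries spread, and that spread may be technical.

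Contacts of a 4C viewpoint decline with distance, and an arm across the centromere is mostly reached by rare, long-range contacts and by random ligation. The band 9p21 holds CDKN2A, which encodes the cell cycle inhibitor p16INK4a and, from a second start, the p53 regulator ARF. Next to it lie CDKN2B, which encodes the related inhibitor p15INK4b, and MTAP, an enzyme of methionine salvage. This block is deleted in many tumours, and K562 is known to lack CDKN2A. Sequence that a cell line has lost can be ligated to no viewpoint. In these tables fewer copies of a sequence and fewer contacts per copy cannot be told apart.

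The enzyme DpnII cuts at GATC, so these letters set where a region can be read by this assay. In the RefSeq order of protein-coding genes, IFNA2, IFNA8, IFNA1 and IFNE (type I interferon genes) and MTAP stand on one side of CDKN2A, and CDKN2B, DMRTA1, ELAVL2, IZUMO3 and TUSC1 follow on the other. The 250 bases before the start of each of the 3 genes of the block are shown because the interval that holds them lacks contacts in the data below, although most of them hold a cutting site. They are RefSeq sequences of GRCh38.p14, not of hg19, printed 5′ to 3′ on the gene's strand with each GATC in capitals. GATC was searched as 4 letters, and it reads the same on both strands.
MTAP, chr9:21802386-21802635, plus strand: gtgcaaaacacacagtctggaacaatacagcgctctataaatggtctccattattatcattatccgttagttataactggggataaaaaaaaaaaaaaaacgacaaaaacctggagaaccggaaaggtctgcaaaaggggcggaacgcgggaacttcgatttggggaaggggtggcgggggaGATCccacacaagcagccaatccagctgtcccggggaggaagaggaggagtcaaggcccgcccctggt
CDKN2A, upstream start, chr9:21995325-21995574, minus strand: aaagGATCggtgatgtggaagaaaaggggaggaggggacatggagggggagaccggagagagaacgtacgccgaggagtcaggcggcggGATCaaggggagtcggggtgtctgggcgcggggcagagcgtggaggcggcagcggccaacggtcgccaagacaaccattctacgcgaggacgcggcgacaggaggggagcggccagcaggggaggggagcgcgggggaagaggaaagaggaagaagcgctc
CDKN2A, downstream start, chr9:21974858-21975107, minus strand: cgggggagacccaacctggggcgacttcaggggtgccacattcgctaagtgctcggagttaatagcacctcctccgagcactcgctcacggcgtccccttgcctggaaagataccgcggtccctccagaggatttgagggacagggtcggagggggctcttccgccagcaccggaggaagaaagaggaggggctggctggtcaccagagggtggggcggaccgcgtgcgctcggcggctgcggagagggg
CDKN2B, chr9:22009306-22009555, minus strand: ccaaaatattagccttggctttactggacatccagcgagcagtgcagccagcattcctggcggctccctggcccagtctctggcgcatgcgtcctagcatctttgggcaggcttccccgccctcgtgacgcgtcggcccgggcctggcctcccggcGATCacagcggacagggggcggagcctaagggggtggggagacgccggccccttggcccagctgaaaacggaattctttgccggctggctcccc
GATC stands 1 time before MTAP, 2 times before the upstream start of CDKN2A and 1 time before CDKN2B, and not in the 250 bases before the downstream start of CDKN2A. Of all 35116 RefSeq promoters of this length, 12569 (35.8%) hold it.

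Libraries differed in depth, and the WT libraries were not the deepest. Outside 5 kb of the viewpoint, the mutant libraries held 76932 to 743011 chromosome 9 reads at the promoter, against 318591 and 525512 in WT. At S2 the mutants held 819621 to 3102118 such reads against 713125 and 934399 in WT, and at S4 481265 to 2950070 against 1087466 and 1518459. In all chromosome 9 reads WT was the shallowest, with 1437870 and 2314930 against 4528931 to 6260106 in mutants at the promoter. These totals were 1798253 and 2326487 against 3500663 to 8008761 at S2, and 1600859 and 2212517 against 4681014 to 6824631 at S4. A larger part of the WT reads thus lay outside 5 kb than in any mutant library of the same viewpoint. Reads carry no molecular identifier, so intervals and limits below cover counting error only.

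The short arm took a smaller share of contacts in all 4 mutants than in WT, at each viewpoint. From the promoter, the S2 mutant had 0.278 and 0.289% of its chromosome 9 reads outside 5 kb on 9p and the S4 mutant 0.243 and 0.254%. The S5 mutant had 0.178 and 0.185% and the S4-S5 mutant 0.226 and 0.218%, against 1.98 and 1.98% in WT. The mutant libraries lay close together and both WT libraries lay above all of them. The means were 0.234% over the 8 mutant libraries and 1.98% over the 2 WT libraries (log2 -3.08). The 5 genotypes differed in an exact permutation test of the between-genotype F statistic over the 945 partings of 10 libraries into pairs (upper-tail p = 0.00106, adjusted 0.00553 over 17 tests). Mutants differed from WT in an exact two-sided permutation test of the mean difference (p = 0.0222, adjusted 0.0270), which is the smallest p that 2 WT libraries among 10 can give.

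From S2, the S2 mutant had 0.781 and 0.752% and the S4 mutant 0.187 and 0.181%. The S5 mutant had 0.210 and 0.199% and the S4-S5 mutant 0.0995 and 0.0920%, against 2.18 and 2.21% in WT. The S2 mutant stood well above the other mutants here, and 1 fragment end carried most of its reads. The mean over mutants was 0.313% against 2.20% in WT (log2 -2.81, exact permutation p = 0.00106, adjusted 0.00553). Without the most covered 9p end of each library the S2 mutant had 0.0709% and WT 2.11%.

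From S4, the S2 mutant had 0.0222 and 0.0193% and the S4 mutant 0.120 and 0.120%. The S5 mutant had 0.215 and 0.206% and the S4-S5 mutant 0.193 and 0.186%, against 1.54 and 1.57% in WT. The S2 mutant was the lowest of all 15 groups here and the highest of the mutants at the other 2 viewpoints. That high place rested on 1 end per library. Without the most covered 9p end it had 0.150% at the promoter, where the S4 and S4-S5 mutants had 0.179 and 0.197%, and 0.0709% at S2, where the S4 and S5 mutants had 0.127 and 0.103%. The mean over mutants was 0.135% against 1.55% in WT (log2 -3.52, exact permutation p = 0.00106, adjusted 0.00553).

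**Figure D1:**
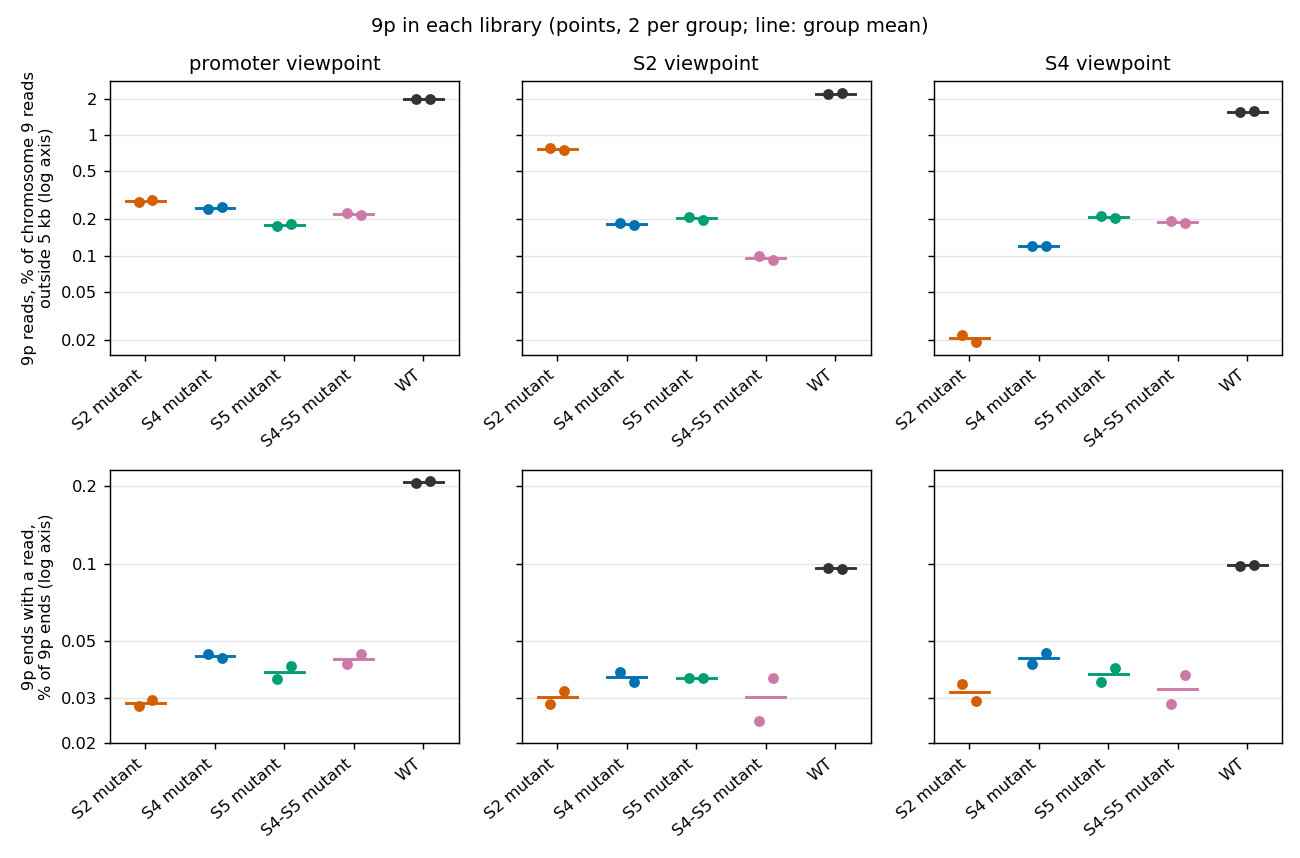
Upper panels: 9p reads as a percentage of chromosome 9 reads outside 5 kb of the viewpoint. Lower panels: 9p fragment ends with a read as a percentage of 9p ends. Each point is a library, each line a group mean and all axes are logarithmic. At every viewpoint the 8 mutant libraries lie below the 2 WT libraries in both measures.

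A share of this kind depends on what else is counted. Among reads more than 500 kb from the viewpoint, the promoter's share on 9p was 1.77% with S2 mutated, 1.46% with S4 mutated, 1.26% with S5 mutated and 1.29% with both S4 and S5 mutated, against 5.94% in WT. The mean over mutants stayed below WT at S2 and S4 too (log2 -1.85 and -2.25). Among reads more than 10 Mb away the difference shrank to a log2 of -1.11 at the promoter and -1.19 at S4, and at S2 it turned to 0.07. The S2 mutant lay above WT at S2, with 60.0% of such reads on 9p, while the S4, S5 and S4-S5 mutants had 11.8, 6.97 and 4.48% and WT had 19.8%.

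Fewer separate 9p ends were reached in the mutants. A read fell on 37 to 59 of the 132690 ends per mutant library at the promoter, against 274 and 277 in WT. At S2 the mutants had 36 to 56 covered ends against 142 and 141 in WT, and at S4 42 to 66 against 144 and 146. Nearly all of the arm's ends had no read in any one library. As shares of all 9p ends, the means were 0.0382% in mutants and 0.208% in WT at the promoter, 0.0331 and 0.0959% at S2 and 0.0360 and 0.0985% at S4. The log2 ratios of these means were -2.44, -1.53 and -1.45.

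Genotypes differed in the share of covered ends at the promoter (exact permutation p = 0.00423, adjusted 0.0103) and at S4 (exact permutation p = 0.0180, adjusted 0.0270). At S2 the exact permutation p was 0.0444, which did not pass after adjustment (0.0504). Without replicate 1 of the S2, S4 or S5 mutant, or replicate 2 of the S5 mutant, the unadjusted exact permutation p at S2 was 0.0603 to 0.0667. Mutants against WT alone gave an exact permutation p of 0.0222 (adjusted 0.0270) at each viewpoint. Thinned to equal numbers of reads outside 5 kb, the log2 ratios were -2.62, -2.24 and -2.15, so the shares were no nearer after thinning.

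Along the arm, contacts were uneven in similar places for all 3 viewpoints. The median 1-Mb bin had a read at 0.0235% of ends in mutants and 0.178% in WT in the promoter libraries, and at 0.0254 and 0.0837% in those of S2. In those of S4 it was 0.0214% in mutants and 0.0621% in WT. The bin from 37000001 to 38000000 took the largest part of WT 9p reads at each viewpoint, with 11.6% for the promoter, 19.0% for S2 and 16.0% for S4. In that bin 2 to 13 of 3815 ends had a read per mutant library at the promoter, against 24 and 24 in WT. At S2 the counts were 7 to 12 of 4350 ends in mutants and 27 and 27 in WT, and at S4 5 to 10 of 4319 in mutants and 17 and 20 in WT.

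The other bins rich in WT reads lay on the same centromeric stretch or near the tip. At the promoter, the bins from 34000001 and from 35000001 followed, with 9.91 and 9.24% of WT 9p reads. At S2 they were the bins from 34000001 (7.29%) and from 6000001 (6.55%), and at S4 those from 35000001 (11.2%) and from 4000001 (7.92%). Among bins with at least 100 ends, by the share of covered ends, the bins from 37000001, 38000001 and 33000001 were the 3 highest in WT at every viewpoint. The bin from 38000001 had a read at 0.171% of ends in mutants and 0.781% in WT at the promoter.

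Profiles of covered ends over the 39 bins correlated between WT viewpoints at Pearson's r = 0.780 for promoter and S2, 0.792 for promoter and S4 and 0.841 for S2 and S4. Spearman's rho was 0.802, 0.714 and 0.757. The mutants' mean profile correlated with that of WT at r = 0.915 for the promoter, 0.927 for S2 and 0.871 for S4. These are descriptions across bins of one genome, which share their fragment map. Mutants and WT also share many of the covered ends themselves. Of the ends covered in either library of a mutant, 51.8 to 83.1% were covered in WT too at the promoter. At S2 this was 79.1 to 90% and at S4 75.4 to 94.2%, so the mutant profile partly repeats ends of WT. Against the number of ends in a bin, the WT profile had r = 0.159, 0.356 and 0.325.

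**Figure D2:**
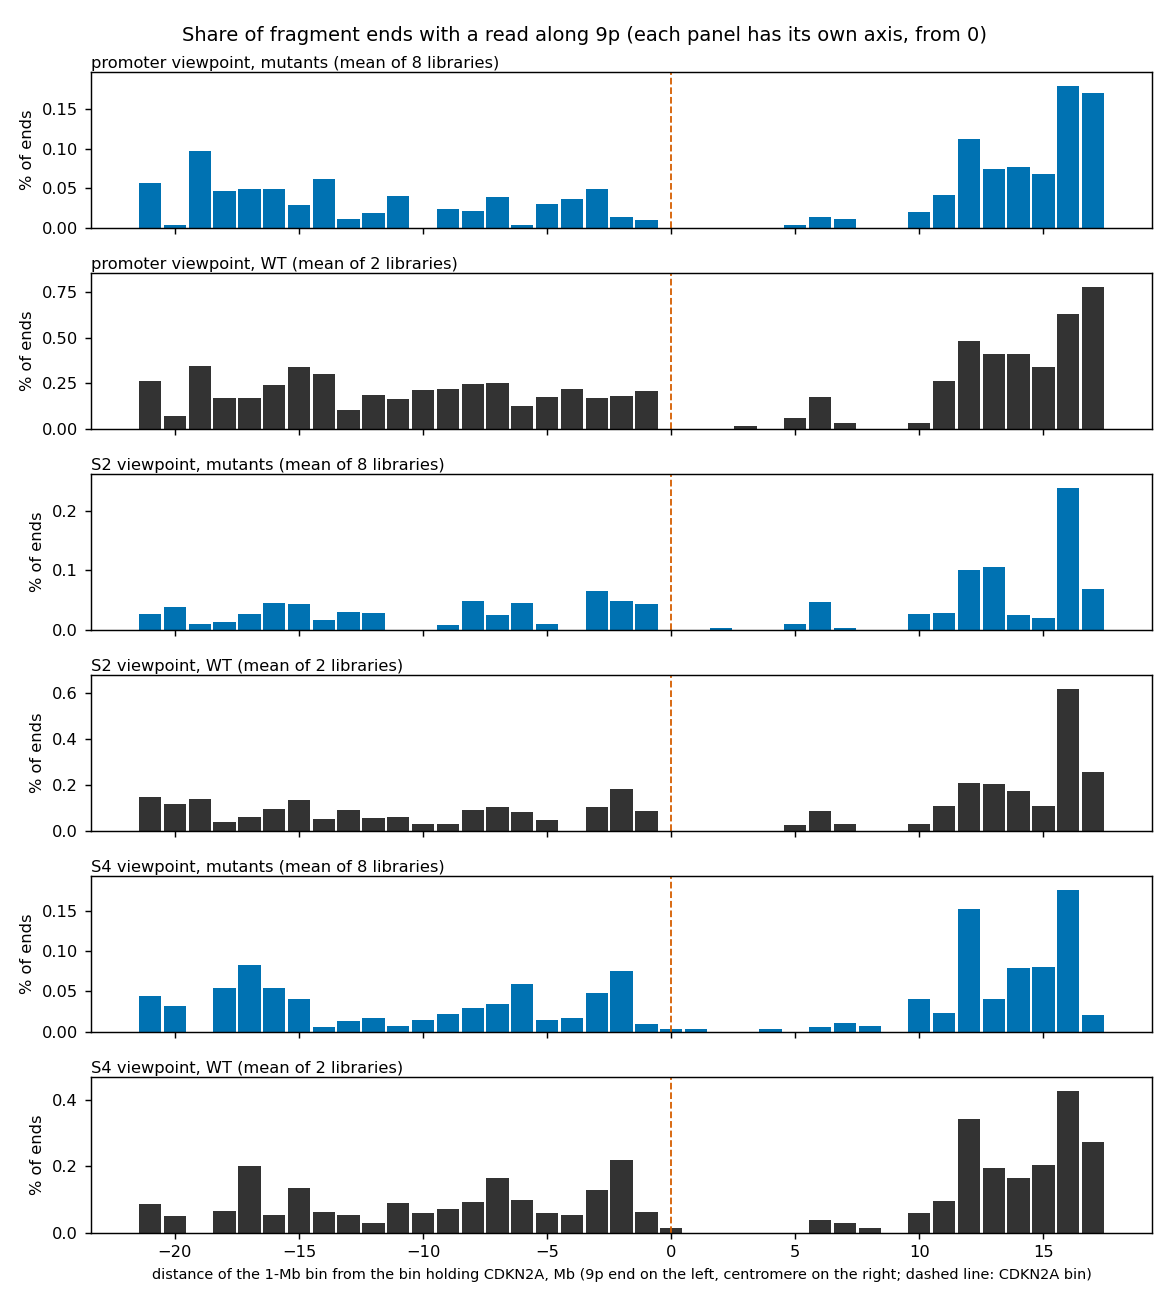
Share of fragment ends with a read (per cent of ends, bars) in each 1-Mb bin of 9p with at least 100 ends, against distance from the bin holding CDKN2A in Mb. For each viewpoint the mean of 8 mutant libraries stands above the mean of 2 WT libraries, and each panel has its own axis from 0. Bars are highest 16 or 17 Mb towards the centromere and at or near 0 on both sides of a small peak at 5 to 7 Mb.

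The bin holding CDKN2A, from 21000001 to 22000000, had next to no contact in any genotype. At the promoter, 0 of its 3080 ends had a read in each of the 8 mutant libraries and each of the 2 WT libraries. At S2, 0 of 3390 ends had a read in each of the 10 libraries. At S4, 1 of 3388 ends (position 21475831) had 1 read in replicate 2 of the S4-S5 mutant and 1 read in replicate 2 of WT, and the other 8 libraries had none. A count of 0 allows a share of up to 0.0974% of ends per library at the promoter. The rest of 9p had 0.0285 to 0.0455% in the mutants and 0.211 and 0.214% in WT. The exact 95% binomial upper bound was 0.120%. A single mutant library is therefore too thinly covered to show that the bin differs from the rest of 9p, while both WT libraries lay above the limit. At S2 the limit was 0.0885% against 0.0250 to 0.0388% elsewhere on 9p in mutants and 0.0985 and 0.0978% in WT, and by the exact 95% binomial upper bound of 0.109% neither was above it. At S4, where 2 libraries had a read in the bin, the rest of 9p had 0.0292 to 0.0459% in mutants and 0.1001 and 0.1008% in WT. The exact upper bounds for the bin were 0.109% at 0 covered ends and 0.164% at 1, above all of these. The ratio of the bin to the rest of the arm could not be tested at the promoter and S2, where it was 0 in all libraries, and gave an exact permutation p of 1 at S4.

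The bins beside it were split. Towards the tip, the bin from 20000001 had a read at 0.0103% of ends in mutants and 0.205% in WT at the promoter, 0.0439 and 0.0879% at S2 and 0.00943 and 0.0628% at S4. The bin from 19000001 had 0.0137% in mutants and 0.178% in WT at the promoter. Towards the centromere, the bins from 22000001 and 23000001 had no read in any of the 10 promoter libraries. At S2 the bin from 22000001 had none in the 10 libraries and that from 23000001 a read in 1 library, the S2 mutant's replicate 2. At S4 the bin from 22000001 had a read in 1 library, replicate 2 of the S5 mutant, and that from 23000001 in none.

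Pooling the 3 viewpoints, 2 long stretches of 9p held no end with 2 or more reads in any WT library. The first ran from the end at 20737142 to the end at 26783464, 6.05 Mb in length, and holds the CDKN2A bin. The second ran from 28302579 to 31675813, 3.37 Mb in length. The next longest was 0.558 Mb. These limits were taken from WT libraries after the data were seen, so their emptiness in WT is a description of the choice.

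The mutant libraries too had single reads at most in these stretches. Many of their covered ends are also ends of WT, for which this follows from the choice. At ends with under 2 reads in every WT library, which the choice left free, 10 of 363 pairs of a covered end and a mutant library (2.75%) and 0 of the 224 pairs with 2 or more reads lay in the stretches. Together the stretches hold 22.7% of the 9p ends listed for the promoter and 22.4% of those for each of S2 and S4. Of 1220 pairs of a covered end and a mutant library, 10 (0.820%) lay in them, against 3 of 1124 (0.267%) in WT. Of the 569 pairs with 2 or more reads in mutants, 0 lay there. In all, the first stretch had 4 reads in mutants and 2 in WT, and the second had 6 in mutants and 1 in WT. Each was the only read at its end in its library. From S4, position 21475831 had 1 read in replicate 2 of the S4-S5 mutant and of WT. Position 29048059 had 1 read in both libraries of the S4 mutant from S4. A count of 0 in the first stretch allows up to 0.0153% of ends per library from the promoter and 0.0140% from S2 and from S4. In the distal segment, from the tip to the first stretch, the lowest mutant library had 0.0280% from the promoter, 0.0189% from S2 and 0.0241% from S4. These shares include ends where another genotype averaged at least 20 times the reads. Without them the mutant libraries had 0.0126 to 0.0280%, 0.00253 to 0.00758% and 0.00380 to 0.0127%, above the limit in 6 of 8 libraries from the promoter and in 0 of 8 from S2 and 0 of 8 from S4. For most single mutant libraries the empty first stretch is then not detectable at this depth.

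Between the stretches, WT and some mutants had contacts again. From 26783464 to 28302579, mutants had a covered share of 0.0138% in the promoter libraries, 0.0395% in those of S2 and 0.0104% in those of S4, as means over 8 libraries, against 0.175, 0.0914 and 0.0417% in WT. At the promoter all 4 libraries of the S2 and S4 mutants had no read here, and at S4 both libraries of the S4-S5 mutant and replicate 1 of the S5 mutant had none. In the WT libraries 10 and 9 of 5417 ends had a read at the promoter (0.185 and 0.166%, exact 95% binomial intervals 0.0886 to 0.339% and 0.0760 to 0.315%). At S2 6 and 5 of 6015 ends did in WT, and at S4 2 and 3 of 5999. Single ends of this piece were deep in some genotypes. At position 27120785 the mutant libraries had 0 or 1 read at the promoter, and WT had 103 and 187. At 28125640 the mutant libraries had 0 to 2 reads at S4, and WT had 281 and 478. The S4-S5 mutant had 353 and 639 reads at position 27777787 at S2, where WT had 2 and 0. What sets the limits of the stretches was not tested.

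**Figure D3:**
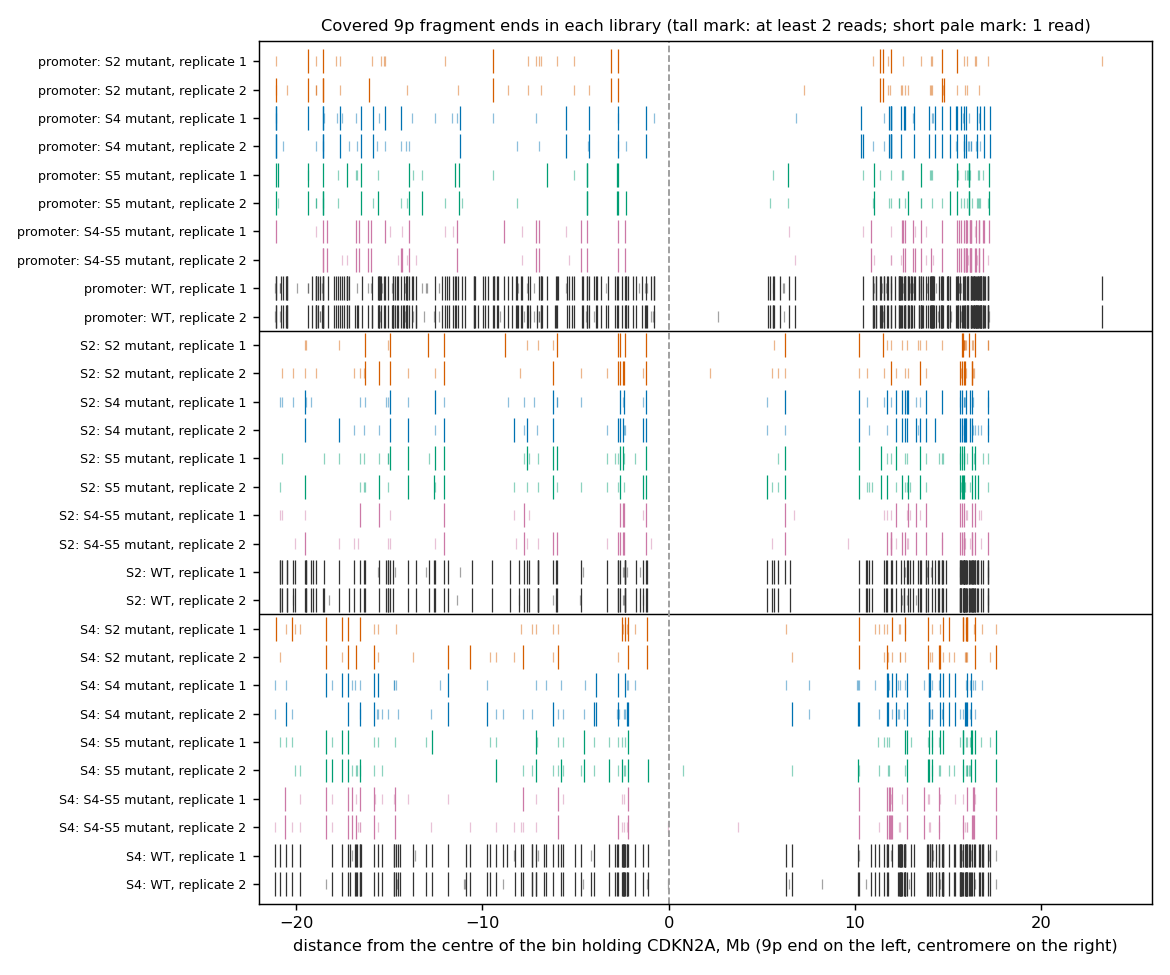
Each row is a library and each mark a 9p fragment end with a read, tall for at least 2 reads and short for 1 read, against distance from the centre of the CDKN2A bin in Mb. Within each viewpoint the mutant libraries stand above the WT libraries. The stretch around the dashed line and a second one towards the centromere hold single reads at most in all 30 libraries.

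On the covered parts of the arm, the centromeric side had a higher share of covered ends than the distal side, in mutants and in WT. From the second stretch to position 39000000, the mutants had a read at 0.0994% of ends and WT at 0.446% at the promoter. The distal segment had 0.0336% in mutants and 0.210% in WT. At S2 the proximal piece had 0.0832% in mutants and 0.235% in WT, against a distal 0.0276 and 0.0846%. At S4 it had 0.0847% in mutants and 0.238% in WT, against a distal 0.0331 and 0.0899%. The distal piece lies farther from the viewpoint along the chromosome. These pairs were not tested against each other.

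The reads that mutants did have on 9p came from few ends. The most covered end took 11.1 to 51.4% of 9p reads in mutant libraries at the promoter, against 2.58 and 2.60% in WT. At S2 it took 27.6 to 91.9% in mutants against 4.15 and 3.70% in WT, and at S4 19.0 to 33.6% against 2.99 and 3.43%. The median covered end had 1 to 8 reads in mutants and 9.5 and 15 in WT at the promoter. At S2 that median was 1 to 2 reads in mutants and 43.5 and 56 in WT, and at S4 1 to 2 reads and 63 and 79.

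Which end was the deepest differed between genotypes. In 12 of 15 groups the 2 libraries had the same most covered end, and none of the 18 such ends belonged to more than 1 genotype of a viewpoint. With 1 such end per library among 132690 to 147581 9p ends, none in common is no result about these genotypes. From S2, the S2 mutant had 5880 and 6072 reads at position 20307096, the S4 mutant 1333 and 1465 at 33710170, the S5 mutant 2001 and 1754 at 37814387 and the S4-S5 mutant 570 and 788 at 37258884. WT had 647 reads at 7520959 in replicate 1 and 763 at 6518112 in replicate 2. From the promoter, the S2 mutant had 110 and 103 reads at 18768221, the S4 mutant 244 and 208 at 2941194 and the S5 mutant 123 and 122 at 37667833, while WT had 163 and 270 at 33431125. The S4-S5 mutant had 130 reads at 37351405 in replicate 1 and 184 at 35078933 in replicate 2. No such end was common to 2 genotypes here either. From S4, the S2 mutant had only 22 and 21 reads at 20356649 and the S4 mutant 806 and 840 at 33258810. The S5 mutant had 983 and 1068 at 39103359, and WT 500 and 816 at 35464573. The S4-S5 mutant had 967 reads at 19318092 in replicate 1 and 1369 at 31716415 in replicate 2.

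Libraries of 1 genotype had many covered ends in common, and so did different genotypes. At the promoter, the S2 mutant's libraries shared 17 ends, 45.9% of the 37 in replicate 1 and 43.6% of the 39 in replicate 2. Those of the S4-S5 mutant shared 40, 74.1% of 54 and 67.8% of 59, and those of WT 239, 87.2% of 274 and 86.3% of 277. At S2 the WT libraries shared 130 ends, 91.5% of 142 and 92.2% of 141. At S4 they shared 129, 89.6% of 144 and 88.4% of 146. At S2 the S2 mutant's libraries shared 45.2% of 42 and 40.4% of 47 ends. Of the 70 ends covered in either of them, 75.7% were covered in the S4 mutant and 90% in WT. At the promoter 28.8% of its 59 ends were covered in the S4 mutant and 83.1% in WT. A shared end is thus not particular to libraries of 1 genotype, although pooled libraries offer more ends to share. Over ends with at least 10 reads in the 2 libraries together, chi-square per degree of freedom between replicates was 0.754 to 1.94 in the 4 mutants at the promoter and 1.52 in WT. The values of 0.974 in the S2 mutant and 0.754 in the S5 mutant are no more than counting error gives, but rest on only 6 and 12 ends, and the libraries were kept as 2 samples, as labelled. It was 2.11 to 16.5 in mutants and 2.11 in WT from S2, and 2.00 to 5.26 in mutants and 3.43 in WT from S4. The 16.5 belonged to the S2 mutant, over 5 ends.

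Few ends had at least 10 reads in both libraries of a mutant, and their overlap with those of WT rests on 0 to 2 ends. At the promoter there were 5 such ends with S2 mutated, 18 with S4, 7 with S5 and 22 with both S4 and S5, against 133 in WT, and 2 ends of each mutant were common with WT, 40, 11.1, 28.6 and 9.09% of the mutant's ends and 1.50% of WT's. The S2 and S4 mutants shared 3 there, 60% of the S2 mutant's and 16.7% of the S4 mutant's. At S2 the mutants in this order had 2, 8, 3 and 7 and WT 108. Of these, 1 end each of the S2, S4 and S5 mutants was common with WT (50, 12.5 and 33.3% of the mutant's ends and 0.926% of WT's), and none of the S4-S5 mutant's. At S4 the mutants had 1, 9, 5 and 12 and WT 111, with none in common between any 2 genotypes. With so few among the 147264 9p ends listed for S4, none in common is no result about these genotypes. Counting ends with 1 read or more in either library, any 2 genotypes shared 35 to 73 ends there.

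Many of the mutants' thinly covered ends coincided with deep ends of another genotype. Ends where another genotype of the same viewpoint averaged at least 20 times the reads made up 25.4 to 62.2% of covered 9p ends in mutant libraries at the promoter, against 2.19 and 1.44% in WT. At S2 they made up 66.7 to 88.7% in mutants against 9.86 and 9.93% in WT, and at S4 54.8 to 93.0% against 8.33 and 8.22%. The rule is met more easily at ends with few reads. At S2 and S4 the median covered end had 1 to 2 reads in mutants and 43.5 to 79 in WT. The contrast between mutants and WT in these shares thus follows in part from the rule and is no result by itself. The ends so marked carried 1 to 4 reads at most in mutant libraries at the promoter, 5 to 45 at S2 and 3 to 8 at S4. Left aside, 14 to 44 covered ends remained per mutant library at the promoter against 268 and 273 in WT. At S2 6 to 16 remained in mutants against 128 and 127 in WT, and at S4 3 to 23 against 132 and 134. Why these ends have reads was not tested. Without them the log2 ratio of mutants to WT in the share of covered ends was -3.20 for the promoter, -3.67 for S2 and -3.26 for S4. Leaving such ends aside widens this gap by construction, since it removes mutant ends where WT is high and keeps the same ends in WT.

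**Figure D4:**
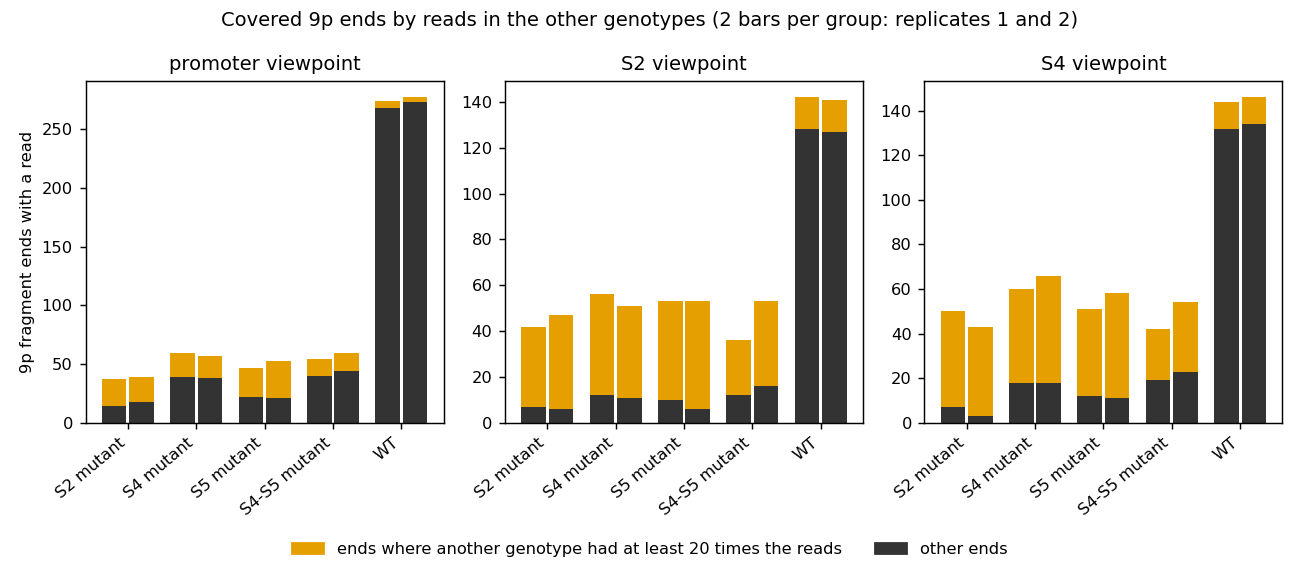
Number of 9p fragment ends with a read in each library, with replicates 1 and 2 side by side. The upper part of a bar counts ends where another genotype of that viewpoint averaged at least 20 times the reads, and the lower part counts the other ends. Mutant libraries keep 3 to 44 other ends, and WT libraries 127 to 273.

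The short arm was reached less often than the far part of the long arm, in every library. Between positions 70 and 130 Mb, 0.0998 to 0.248% of ends had a read in mutants at the promoter and 0.488 and 0.520% in WT. At S2 these shares were 0.116 to 0.145% in mutants and 0.277 and 0.300% in WT, and at S4 0.104 to 0.139% and 0.278 and 0.287%. The log2 ratio of the share on 9p to that on the long arm averaged -1.92 for the promoter, -1.92 for S2 and -1.76 for S4 over 10 libraries. It was below 0 in 10 of 10 libraries at each viewpoint (exact sign-flip permutation p = 0.00195, adjusted 0.00553, the smallest p that 10 libraries can give). Libraries of 1 genotype may share a template, which would make this p too small. Without the 2 empty stretches the ratio was -1.56, -1.56 and -1.41, so the stretches account for part of it by construction.

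The same ratio was lower in each mutant than in WT. At the promoter it averaged -1.82 and -1.99 in the S2 and S4 mutants, and -2.04 and -2.47 in the S5 and S4-S5 mutants, against -1.28 in WT. At S2 it was -1.97, -1.99, -1.89 and -2.14 in these mutants against -1.59 in WT, and at S4 -1.85, -1.69, -1.83 and -1.92 against -1.52. With ends of other genotypes left aside, the 2 libraries of the S2 mutant lay on both sides of WT, with -1.23 and -1.02 against -1.17 and -1.21 at the promoter, and -1.60 and 0.68 against -1.38 and -1.46 at S2. At S4 they averaged -1.39 (SD 0.287) against -1.39 (SD 0.00258) in WT. In this setting the S2 mutant was thus not clearly below WT at any viewpoint, while the S4, S5 and S4-S5 mutants averaged below WT at each. The difference in this ratio between mutants and WT was not tested.

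Reads were summed in 1-Mb bins of the whole chromosome and each mutant was compared with WT by edgeR's quasi-likelihood test, with the chromosome 9 reads outside 5 kb as library size. A bin was tested where it averaged at least 10 reads per library, and called at a Benjamini-Hochberg adjusted p under 0.05 over all bins of the contrast. With the mutants in the order S2, S4, S5 and S4-S5, 26, 27, 27 and 27 of 27 tested 9p bins were lower at the promoter, where 92.8, 94.8, 92.8 and 96.9% of all tested chromosome 9 bins were lower. At S2, 25, 27, 26 and 26 of 27 were lower in the same order, where 91.7, 94.8, 88.5 and 91.7% of all bins were. At S4, 29, 28, 28 and 28 of 30 were lower, where 94, 95, 90 and 93% of all bins were. These shares of 9p bins are near those of the chromosome as a whole and are no result about 9p. In 47 of the 84 tested bins the mutant mean was under 10 reads, so those bins passed through WT and had to be lower. The 4 contrasts of a viewpoint share its WT libraries. Size factors moved the split by over 10 percentage points in 5 contrasts. Under DESeq2 the S2 mutant had 17 bins lower and 5 higher at the promoter and 5 lower and 4 higher at S4. The S4 mutant had 23 lower and 3 higher at S2 and 25 lower and 3 higher at S4, and the S4-S5 mutant 24 lower and 5 higher at S4. TMM factors gave the S2 mutant 18 lower and 3 higher at the promoter, the S4 mutant 24 lower and 3 higher at S2, and the S4-S5 mutant 25 lower and 4 higher at S4.

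By size, the median 9p bin fell more than the median bin of the chromosome in all 12 contrasts. At the promoter the median log2 fold change on 9p was -5.53 and -3.55 in the S2 and S4 mutants, and -5.93 and -5.05 in the S5 and S4-S5 mutants. Over all bins it was -4.69, -2.81, -2.15 and -2.14 in the same order. At S2 the medians on 9p were -8.60, -9.23, -8.69 and -10.06, and over all bins -6.98, -5.95, -7.16 and -3.63. At S4 they were -6.94, -8.72, -8.21 and -8.69 on 9p and -6.36, -6.76, -6.87 and -4.38 over all bins. Fitted values of bins with 0 mutant reads depend on the prior count, and 35 of the 336 tests had such a bin. With reads more than 500 kb away as library size, the medians over all bins ran between -6.26 and -0.95 and those on 9p between -8.94 and -2.58. These medians are a description, since most 9p bins passed the count minimum through WT.

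Of the 12 bins with the largest decrease in a contrast, 10 had no read in the mutant. All 12 were picked for their size, and the 3 described next passed the count minimum only through WT, so their values are a description with no p. The bin from 27000001, between the empty stretches, had 0 and 0 reads in the S4 mutant at the promoter against 177 and 319 in WT, a share at least 125-fold lower taking 3 reads, summed over its 2 libraries, as the floor. It was also empty in the S2 mutant, where fewer reads give a bound of 30.8-fold. The bin from 7000001 had 0 and 0 reads in the S4-S5 mutant at S2 against 674 and 772 in WT, at least 1498-fold lower. The bin from 38000001 had 0 and 0 reads in the S4-S5 mutant at S4 against 385 and 432 in WT, at least 527-fold lower. The WT reads behind these bounds came from few ends. They lay at 7 and 6 of 3684 ends in the bin from 27000001 and at 2 and 2 of 4032 in that from 7000001. In the bin from 38000001 they lay at 9 and 7 of 2925 ends. These bounds thus count reads and not separate ligations.

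In 5 of the 336 tests a 9p bin was higher in the mutant, and single ends carried these bins. Per contrast, 0 to 2 of 27 to 30 tested 9p bins were higher, against 1 to 6 of 96 to 100 tested bins of the whole chromosome. These counts are no result about 9p. The bin from 39000001 had 983 and 1068 reads in the S5 mutant at S4 against 1 and 1 in WT (log2 9.68). It holds only 13 ends, and the libraries of the other genotypes had 0 to 3 reads there. This bin passed the count minimum only through the S5 mutant and had to be higher in it, so it is a description with no p. The bin from 9000001 had 419 and 630 reads in the S2 mutant at S2 against 21 and 41 in WT (log2 4.01). It too passed the count minimum only through the mutant in which it was high, and is a description with no p. The bin from 20000001 had 5880 and 6073 reads in the same mutant and viewpoint against 322 and 405 in WT (log2 3.98, edgeR adjusted p = 4.13e-33). By share of the library's reads, both mutant libraries lay above both WT libraries in these 3 bins and in those described next. The bin from 31000001 had 921 and 1369 reads in the S4-S5 mutant at S4 against 206 and 249 in WT (log2 1.40, edgeR adjusted p = 4.2e-22). The bin from 18000001 had 112 and 106 reads in the S2 mutant at the promoter against 126 and 222 in WT (log2 1.74, edgeR adjusted p = 6.37e-22), a higher share of a smaller library. The test counts reads and not separate ligations. Of the mutant reads in these 5 bins, nearly all lay at 1 end each, at positions 39103359, 9457332, 20307096, 31716415 and 18768221.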

How the data were processed

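4C-seq reads on chromosome 9 were given for 30 libraries. Per the file headers, the deposited tables list whole, unscaled read counts for every restriction fragment end, and no other column was used. hg19 and deepTools are named in the submitters' processing notes, and the sources used here give neither aligner nor read filters.

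Libraries were grouped by viewpoint and genotype from the labels. The members and the lists of regions were chosen with earlier results of these data known. Ends within 5 kb of the viewpoint were left out of library totals. Named regions were the CDKN2A bin and 2 bins on either side, the 3 bins with the highest WT share of 9p reads or the highest or lowest WT share of covered ends, the most changed called bin per contrast and direction, and the most covered 9p end per library. A planned search for runs of 100-kb bins far below the WT median could not be applied because that median was 0, with 207 of 389, 282 of 388 and 275 of 388 bins without a WT read. The longest stretches without an end of 2 or more WT reads replaced it after the data were seen.

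Shares per library were compared by exact permutation tests with Benjamini-Hochberg adjustment over 17 values in all (Python 3.11.15, numpy 2.4.6, scipy 1.17.1). Bin counts were tested with edgeR 4.0.16 in R 4.3.3, all 10 libraries of a viewpoint in 1 fit, and with DESeq2 1.42.0 as an alternative. Both kinds of test were run on simulated data, with independent values and, for edgeR, some bins raised in a single mutant. These simulations do not cover a fall in most bins, bins carried by single ends or libraries that share a template. Promoter sequences came from RefSeq.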

Additional observations from a re-analysis of the deposited data

How the results depend on the processing

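The 9p share of reads stayed lower in mutants than in WT under 17 of 18 alternatives (log2 -4.51 to -1.11), which were a 20-kb mask, reads more than 500 kb or 10 Mb away, reads capped at 10 per end, non-blind ends, and, chosen after seeing the data, the top 9p end left out, which takes more from mutants. The exception was reads more than 10 Mb away at the S2 viewpoint, where the log2 ratio was 0.0701 and 1 end of the S2 mutant took most of its 9p reads. Leaving out each library gave -3.13 to -3.03 at the promoter, -3.16 to -2.67 at S2 and -3.65 to -3.35 at S4.

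The share of covered ends kept its direction and an unadjusted exact permutation p under 0.05 in 12 other settings (log2 -3.12 to -1.20). Leaving out ends of other genotypes, also chosen after seeing the data, lowers mutants by construction and is not counted here. Leaving out each library at S2 gave -1.56 to -1.48, with 4 of 10 such fits past 0.05. The ratio of 9p to the long arm ran from -2.15 to -1.41.

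Counts of called 9p bins were 21 to 32 per contrast under TMM factors, a library size of reads more than 500 kb away, no filter, a replicate block and, in 11 of 12 contrasts, DESeq2, and 25 to 29 when a library was left out. DESeq2 called 9 of 30 bins for the S2 mutant at S4, 5 of them lower and 4 higher. Its size factors, like TMM, moved the split: 292 of 317 called bins were lower under TMM and 252 of 284 under DESeq2, against 324 of 329 in edgeR with fixed library sizes. Fitted to covered ends, only 1 bin could be tested at the promoter and S2, called in 1 contrast each for the S2 and S4 mutants at the promoter and in 0 of the S5 and S4-S5 mutants there and 0 of the 4 contrasts at S2, and none could be tested at S4. With the replicate number as a block, 329 of 336 bins were called, as without it. Same-numbered libraries deviated together at correlations of -0.17 to 0.27 at the promoter, -0.17 to 0.11 at S2 and -0.21 to 0.11 at S4. At the promoter 5 of 10 pairs of genotypes were above 0.1, against 1 of 10 at S2 and 1 of 10 at S4. Weak correlations over bins that few ends carry cannot decide whether the numbers pair the libraries.

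The limits are few covered ends per mutant library, 2 libraries per group, reads without molecular identifiers, and counts on chromosome 9 alone. No group was large enough for a search for outlying libraries.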
